A study of Mus musculus with 840 samples.

Results

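DNA replication and mitosis genes were followed in single mammary epithelial cells in which Notch1 had been switched on. The members are 50 genes chosen by name for their known roles, 24 of DNA replication and 26 of mitosis, and each matched 1 Ensembl identifier among the 39154 genes of the count tables. The cells came from mice carrying SMACreERT2 or K5CreERT2 (labelled SMA_NIC and K5_NIC) together with N1ICD-IRES-nGFP in the Rosa26 locus. N1ICD is the active intracellular part of the Notch1 receptor, and nuclear GFP marks the cells that express it. Tamoxifen was given at P21, and both Cre drivers act in basal cells, whose progeny keep the label. Single cells were index-sorted from the basal, intermediate or luminal gate, set by EpCAM and CD49f, as GFPpos or GFPneg, and sequenced with Smart-seq2. The GFPneg cells came from the same induced glands, so they are unlabelled neighbours and not cells of separate wild-type mice. The chase was 1, 3, 4 or 6 weeks for SMACreERT2 and 3 weeks for K5CreERT2, although the sample names of the second K5CreERT2 plate say 6 weeks. For plates of the first 2 batches the study's appendix lists intermediate and luminal GFPpos cells the other way round from the labels, and the labels were used. *Krt14*, a basal keratin, had a read in 19 of 19 intermediate and 15 of 51 luminal GFPpos cells at 4 weeks, and in 13 of 13 and 1 of 11 on the larger of the 3-week plates of those batches. On the 1-week plate it had one in 1 of 4 intermediate and 5 of 8 luminal GFPpos cells, so the keratin order there went against the labels. Without the 1-week unit 13.2% of intermediate and 23.2% of luminal GFPpos cells were cycling by the rule given below, and edgeR again called 0 members in each comparison.

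Of 744 cells, 443 GFPpos and 68 GFPneg cells passed quality control. The GFPpos cells were 100 basal, 120 luminal and otherwise intermediate, and the GFPneg cells were 17 basal, 12 intermediate and 39 luminal. They held a median of 652124 reads on genes (103081 to 3363298), and the median was 402767, 397250 and 1499630 in the 3 batches, so a gene counts as detected in a cell only if it kept a read when the cell's reads were drawn down at random to 100000. A Cre line at a chase time is called a unit below. All SMACreERT2 cells of 1, 4 and 6 weeks came from 1 plate each, so chase, plate and mice cannot be told apart there. In the SMACreERT2 3-week unit, 60 of 76 intermediate GFPpos cells came from a plate without basal or luminal GFPpos cells.

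Replication genes are switched on before and during S phase. The Mcm2 to Mcm7 proteins form the helicase that unwinds DNA, Cdc6, Cdt1, Cdc45 and Gins2 load or activate it, Pcna is the sliding clamp of the polymerases, and Rrm1, Rrm2 and Tyms supply nucleotides. Mitosis genes come later: Cdk1 with the cyclins Ccna2, Ccnb1 and Ccnb2 drives entry into mitosis, Aurka, Aurkb and Plk1 are mitotic kinases, Cenpa, Cenpe and Cenpf act at kinetochores, and Cdc20 and Ube2c drive the degradation of cyclins at its end. In textbook models, E2F factors bind the promoters of the first group, while CHR and CCAAT elements are known from promoters of the second.

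Promoter windows of 300 bases, 250 before and 50 after the annotated start, were at hand from RefSeq (GRCm38.p6) for 42 of the 50 members, and the first listed window of each gene was searched on both strands. The letters TTTGGCGC, TTTCCCGC, TTTGGCGG or TTTCGCGC, which resemble E2F sites, were in 7 of 20 replication windows, in 1 of 22 mitosis windows and in 2.42% of 27025 windows of all genes. The CHR letters TTTGAA were in 16 of 22 mitosis windows, in 4 of 20 replication windows and in 18.1% of all windows. CCAAT was in 18 of 22 mitosis windows, 14 of 20 replication windows and 37.9% of all windows. A match is a run of letters and not a bound site. The 5 windows shown belong to members whose values recur in the results, and capitals mark the letters searched, where E2F-like matches in opposite directions overlap in *Mcm6* and *Mcm5*. They lie at chr1:128359656-128359955 on the minus strand (*Mcm6*), chr8:75109259-75109558 on the plus strand (*Mcm5*), chr7:135716330-135716629 on the minus strand (*Mki67*), chr10:69352863-69353162 on the minus strand (*Cdk1*) and chr9:70421505-70421804 on the minus strand (*Ccnb2*).
Mcm6: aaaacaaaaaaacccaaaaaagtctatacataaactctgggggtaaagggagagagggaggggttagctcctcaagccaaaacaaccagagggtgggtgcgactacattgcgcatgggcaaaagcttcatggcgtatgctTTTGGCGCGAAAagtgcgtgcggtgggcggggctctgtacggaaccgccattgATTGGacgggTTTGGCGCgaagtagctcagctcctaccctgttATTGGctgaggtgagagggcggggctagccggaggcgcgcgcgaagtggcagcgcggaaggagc
Mcm5: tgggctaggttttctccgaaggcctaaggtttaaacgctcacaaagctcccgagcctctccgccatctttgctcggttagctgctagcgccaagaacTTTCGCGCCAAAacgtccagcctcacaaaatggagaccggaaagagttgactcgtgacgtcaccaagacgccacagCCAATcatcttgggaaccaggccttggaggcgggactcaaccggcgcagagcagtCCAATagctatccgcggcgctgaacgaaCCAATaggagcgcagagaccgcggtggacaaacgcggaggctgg
Mki67: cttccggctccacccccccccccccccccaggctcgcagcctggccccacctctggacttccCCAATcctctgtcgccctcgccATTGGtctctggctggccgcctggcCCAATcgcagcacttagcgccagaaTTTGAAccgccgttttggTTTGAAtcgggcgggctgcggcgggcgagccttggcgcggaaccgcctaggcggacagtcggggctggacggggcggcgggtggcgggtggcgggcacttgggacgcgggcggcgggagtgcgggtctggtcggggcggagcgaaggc
Cdk1: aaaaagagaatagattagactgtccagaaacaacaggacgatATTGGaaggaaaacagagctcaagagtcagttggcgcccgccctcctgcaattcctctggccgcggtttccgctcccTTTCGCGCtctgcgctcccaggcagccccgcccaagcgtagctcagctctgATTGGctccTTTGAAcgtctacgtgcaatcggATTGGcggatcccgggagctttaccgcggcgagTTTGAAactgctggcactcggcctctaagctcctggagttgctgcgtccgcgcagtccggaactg
Ccnb2: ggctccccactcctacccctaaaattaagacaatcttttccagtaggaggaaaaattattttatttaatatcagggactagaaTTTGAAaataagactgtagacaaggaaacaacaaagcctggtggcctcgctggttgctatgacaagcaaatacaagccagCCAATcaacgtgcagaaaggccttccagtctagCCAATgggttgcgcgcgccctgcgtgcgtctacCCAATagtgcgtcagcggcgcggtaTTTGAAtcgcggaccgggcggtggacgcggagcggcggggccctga
Both helicase genes shown hold E2F-like letters and no TTTGAA, *Mki67* and *Ccnb2* hold TTTGAA 2 times and no E2F-like letters, and *Cdk1* holds both kinds. Of the helicase genes not shown, *Mcm2* holds TTTGAA and no E2F-like letters, while *Mcm3* and *Mcm7* hold E2F-like letters and no TTTGAA.

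Most cells expressed few of these genes, and a minority expressed many at once. The median cell had a read of 4 of the 24 replication genes and of 1 of the 26 mitosis genes, and 31.9% of cells had no mitosis gene. A cell is called cycling here when at least 10 replication genes or at least 8 mitosis genes had a read. The name stands for this count of genes, since no division was observed in the sequenced cells. By this rule 69 cells (13.5% of all, exact 95% interval 10.7 to 16.8) were cycling. Of these, 22 passed both thresholds, 41 passed the replication threshold only and 6 the mitosis threshold only. Most of the 41 had no read of the proliferation marker *Mki67*, as given below. Mitosis genes split the cells more sharply than replication genes. Only 12 cells lay just under the mitosis threshold with 6 or 7 genes and 4 just above with 8 or 9, while 14 cells had 20 or more. For replication, 33 cells had 8 or 9 genes and 13 had 10 or 11, so the replication class is a range without a gap. Cells with many mitosis genes mostly had many replication genes too, with a median of 16, but an intermediate GFPpos cell of K5CreERT2 held all 26 mitosis genes and 1 replication gene.

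**Figure D1:**
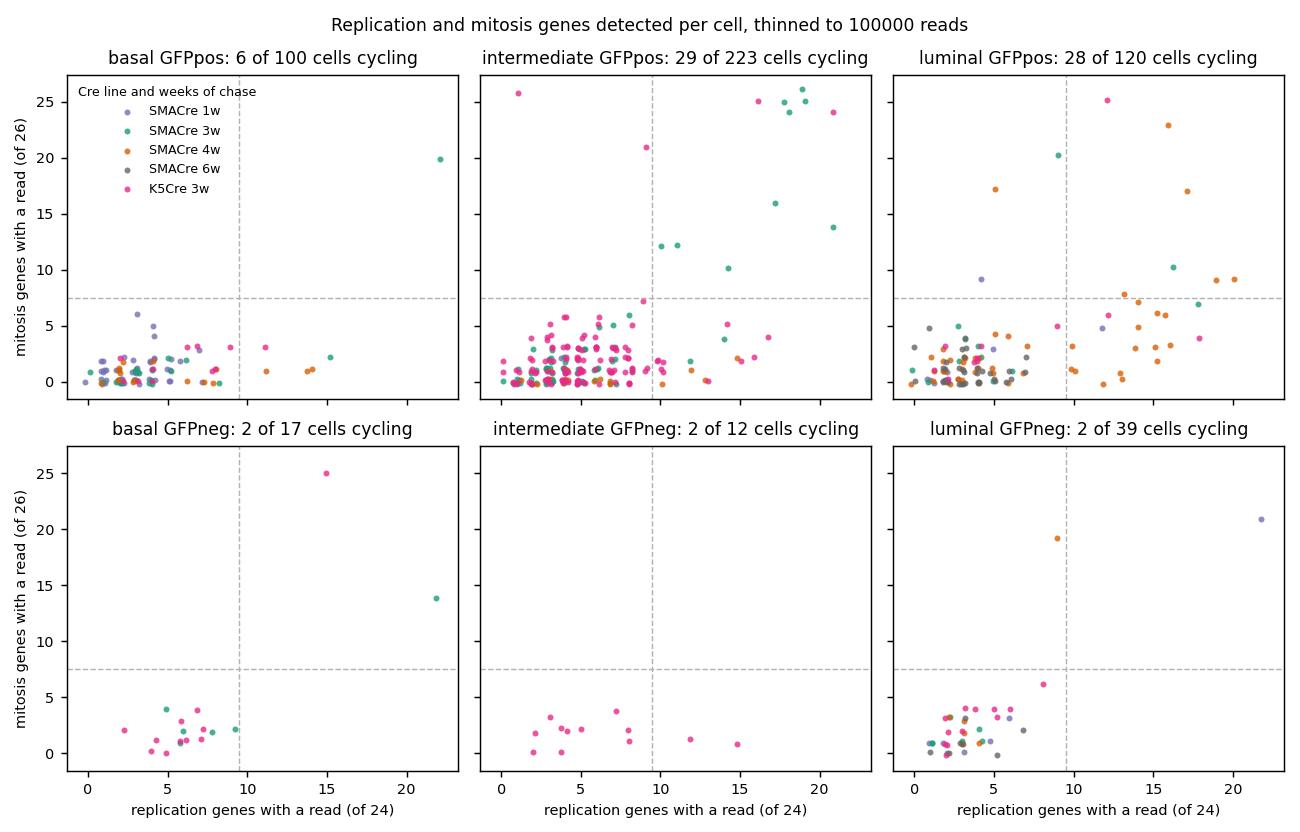
Replication genes (x axis, of 24) against mitosis genes (y axis, of 26) with a read in each cell thinned to 100000 reads, by gate and GFP; points are cells with a small random shift, colours are Cre line and weeks of chase, and dashed lines are the thresholds of 10 and 8 genes. The 14 cells with 20 or more mitosis genes stand apart from the mass of cells at the lower left, and the luminal GFPpos cells of SMACre 4w spread along the replication axis.

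The genes differed widely in how often they were seen. Counts were not divided by gene length, so the order between genes also depends on length. *Pcna* had a read in 70.8% of all cells, followed by *Rfc2*, a clamp loader subunit, in 40.3%, *Rrm1* in 39.9%, *Mcm6* in 36.6% and *Pola1*, the catalytic subunit of the primase-linked polymerase, in 34.1%. The least detected replication genes were *Brca1*, a DNA repair gene, in 20 cells, *E2f8* in 23, the flap nuclease gene *Fen1* in 34, the S phase cyclin gene *Ccne2* in 35 and *Cdc45* in 37. Of the mitosis genes, *Prc1*, which bundles microtubules of the spindle midzone, led with 26% of all cells, then *Ccnb2* with 16.2%, *Mki67* with 14.3%, *Cenpa* with 14.1% and *Anln*, a cytokinesis gene, with 13.9%. *Plk1* was seen in 14 cells, *Bub1* of the spindle checkpoint in 17, *Aurkb* in 20, *Ccnb1* in 26, and the spindle genes *Tpx2* and *Nusap1* in 31 each.

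How much a gene told about the others differed as well. Each gene was compared between cells that were cycling by the other 49 genes and the remaining cells, which describes how the genes go together and is no test, because the genes define the class. All 50 members were more often detected in the cycling cells. *Aurkb* had a read in 19 of 69 cycling cells and in 1 of 442 others. *Racgap1*, which acts in cytokinesis, was seen in 26 of 69 against 9 of 442, *Tacc3*, a spindle gene, in 30 of 69 against 21 of 442, *Top2a*, a topoisomerase gene, in 32 of 69 against 30 of 442, *Cdk1* in 30 of 69 against 16 of 442, and *Mki67*, the usual proliferation marker, in 34 of 69 against 39 of 442. *Pcna* was at the other end, with 90.3% of cycling cells and 68.2% of others, so a read of *Pcna* separated the classes little. *Mcm2* had a read in 48 of 61 against 70 of 450 cells, and *Mcm3* in 49 of 65 against 56 of 446. The helicase and polymerase genes were therefore common in cycling cells but also present in a share of the others, whereas *Aurkb*, *Bub1* (15 of 69 against 2 of 442) and *Ccna2* (22 of 69 against 12 of 442) were nearly absent outside the class.

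The median detection was 34.1% in cycling and 3.62% in other cells over the 26 mitosis genes, and 67.7% and 9.96% over the 24 replication genes. Genes of the same pathways that are no members did likewise, at 27.5% and 1.58% over 20 other mitosis genes (among them *Ndc80*, *Ttk* and *Kif2c*) and 54.4% and 10.3% over 20 other replication genes (among them *Lig1*, *Hells* and *Tk1*). Over 16032 genes of any kind with a read in at least 14 cells, the medians were 29% and 20.6%, and 12972 of them were higher in the cycling cells. Cycling cells thus held more genes of all kinds, with a median of 6709 genes after thinning against 5152 in other intermediate GFPpos cells, and 5697 against 4662 in luminal GFPpos cells. The part of this in the detection of the members was not tested.

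Cells past the replication threshold alone had at most 7 mitosis genes by the rule, and the detection of single genes shows which ones. Over the 26 mitosis genes, the median detection was 72.8% in the cells with 8 or more mitosis genes and 8.42% in the cells past the replication threshold only. *Ccna2* and *Cenpf* were in 22 of 28 cells of the first kind and in 0 of 41 of the second, which allows up to 7.32% of such cells. *Top2a* and *Cdk1* were intermediate, with 22 and 20 of 28 cells against 10 of 41 each. *Mki67* had a read in 27 of 28 cells of the first kind and in 7 of 41 of the second. Replication genes differed less between the kinds, with medians of 71.4% and 61.9%: *Mcm6* had a read in 25 of 28 and 30 of 34 cells, and *Mcm2* in 20 of 28 and 28 of 33. *E2f1*, a gene of the E2F family, was seen in 10 of 28 and 18 of 38 cells, while *Uhrf1*, which helps copy DNA methylation, was seen in 24 of 28 and 17 of 39.

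**Figure D2:**
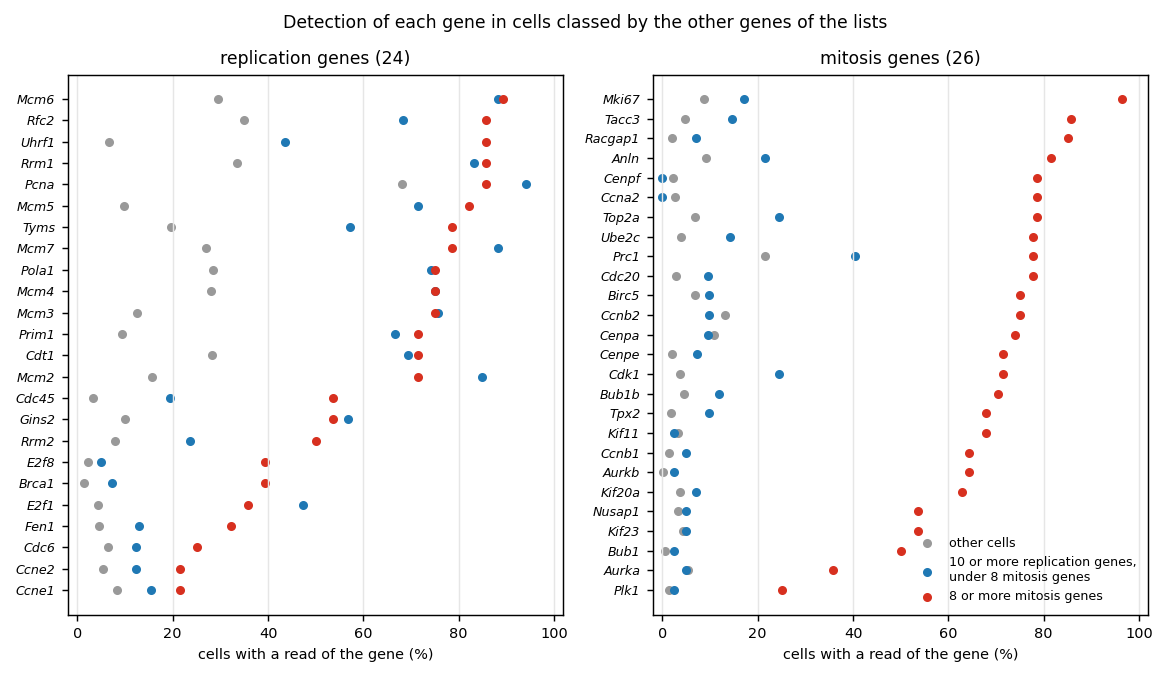
Share of cells with a read of each gene (x axis, %), for 24 replication genes (left) and 26 mitosis genes (right), in cells with 8 or more mitosis genes (red), in cells past the replication threshold only (blue) and in the other cells (grey), each gene left out of the rule for itself. Red and blue lie close for most replication genes such as Mcm6, and far apart for mitosis genes, where Ccna2 and Cenpf are at 0 in blue.

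Pairs of mitosis genes shared cells most. For each pair the cells with both genes were divided by the cells with either, and the median was 24.1% over 325 mitosis pairs, 16.1% over all replication pairs and 13.1% over 624 mixed pairs. These shares rest on the same cells and on how often each gene is detected, so they are a description. The most shared pair was *Ccna2* with *Racgap1*, together in 22 cells of 34 and 35. *Aurkb* was found with *Mki67* in 19 of its 20 cells and with *Top2a* and *Tacc3* in 18 each. Of the 73 *Mki67* cells, 32 also had *Top2a* and 26 had *Cdk1*. Among replication genes, *Mcm2* and *Mcm3* were together in 62 cells, which is 52.5% of the *Mcm2* and 59.1% of the *Mcm3* cells. The most shared mixed pairs were *Brca1* with *Bub1*, in 9 cells of 20 and 17, and *Uhrf1* with *Cdk1*, in 27 of 70 and 46.

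Cycling cells were found in every gate, and their share differed between gates and even more between units. Among GFPpos cells, 6 of 100 basal cells (6.00%, exact 95% interval 2.23 to 12.6), 29 intermediate cells (13%, 8.89 to 18.1) and 28 of 120 luminal cells (23.3%, 16.1 to 31.9) were cycling. These intervals cover counting error only and no difference of these shares was tested, because cells of 1 gland are not independent and the share is a score over the members. The basal share was 12% without SMACreERT2 at 1 week and 3.57% without SMACreERT2 at 4 weeks. Of the GFPneg cells, 2 of 17 basal, 2 of 12 intermediate and 2 of 39 luminal cells were cycling.

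In the luminal GFPpos gate the units ran from none to over 39% of the cells. At 1 week 2 of 8 cells were cycling, at 3 weeks 3 of 13, at 4 weeks 20 of 51 (39.2%, 25.8 to 53.9) and at 6 weeks 0 of 37 (0%, up to 9.49 by the exact interval, and a count of 0 allows 8.11%). In K5CreERT2 at 3 weeks 3 of 11 were. The 4-week plate therefore held 20 of the 28 luminal GFPpos cycling cells, and without it the gate had 8 of 69 (11.6%). Without the 6-week plate it had 28 of 83 (33.7%). By batch, over all gates, the shares were 2.52%, 24.3% and 12.7%. The 4-week plate belongs to the second batch and the 6-week plate to the first, which also held the 1-week plate. By the paper, cells of the 6-week plate were repeated in the second batch. In that second run, the 43 wells compared had at most 8 replication and 4 mitosis genes after thinning, so none reached the thresholds of 10 and 8. Plate, mice and chase cannot be told apart between 4 and 6 weeks, and the part of the batch was not tested. The median number of genes of any kind after thinning was 4949 in the luminal GFPpos cells at 4 weeks and 4663 at 6 weeks, and its part in the difference was not tested. Among cells with at least 4000 genes, 18 of 41 were cycling at 4 weeks and 0 of 34 at 6 weeks. With the cells removed by the *Epcam* and *Dcpp1* filter put back, 0 of 81 cells at 6 weeks were cycling.

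The kind of cycling cell also differed between units. Of the 20 cycling luminal GFPpos cells at 4 weeks, 14 passed the replication threshold only, 5 passed both and 1 the mitosis threshold only. The mitosis threshold was passed by 1 of 8, 2 of 13, 6 of 51 and 0 of 37 luminal GFPpos cells at 1, 3, 4 and 6 weeks. In K5CreERT2 1 of 11 passed it. The 4-week share therefore stood out by the replication threshold and not by the mitosis threshold (11.8%, against 12.5% at 1 week and 15.4% at 3 weeks). The 4 cycling intermediate and 3 cycling basal GFPpos cells of that plate passed the replication threshold only, and its 19 intermediate GFPpos cells had at most 2 mitosis genes. In the intermediate gate of SMACreERT2 at 3 weeks, 9 of 11 cycling cells (of 76) passed both thresholds. Of these 11 cells, 10 came from the plate of 60 cells named above. In the intermediate gate of K5CreERT2, 14 cells were cycling (11.3%, 6.31 to 18.2), 10 of them by replication genes only. The 2 plates of that unit had 9 of 63 and 5 of 61. At 1 week 0 of 50 basal GFPpos cells were cycling, which allows up to 6.00%, and 0 of 4 intermediate ones.

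**Figure D3:**
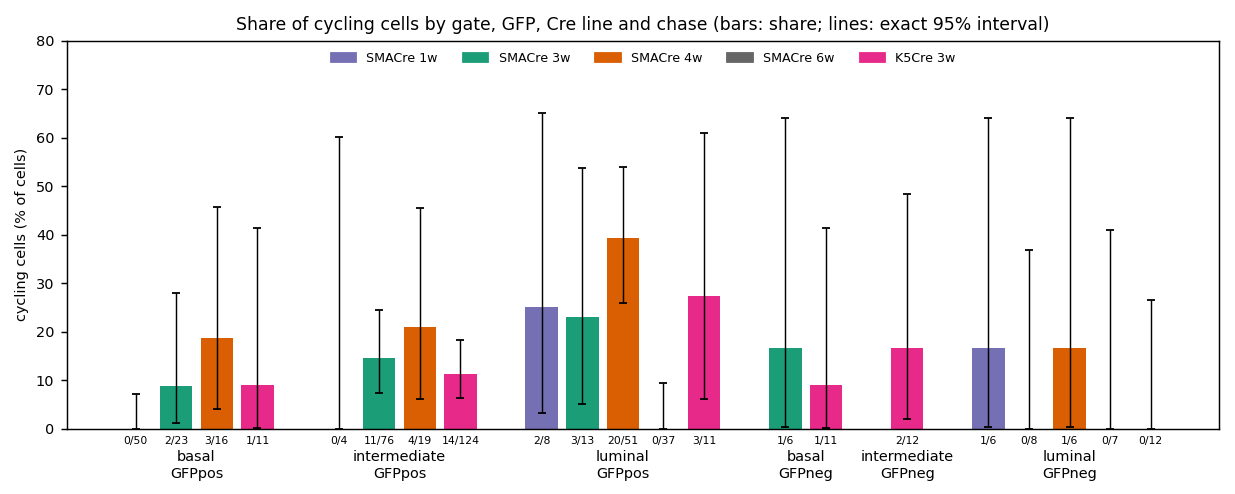
Share of cycling cells (y axis, %) by gate and GFP, one bar per Cre line and chase, with exact 95% intervals as lines and the counts of cells under each bar. The highest share is 20 of 51 in luminal GFPpos cells of SMACre 4w, and the luminal GFPpos bar of SMACre 6w is at 0 of 37; SMACre 6w held luminal cells only.

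Without any threshold the gates overlapped. The mean number of mitosis genes per cell was 1.19 ± 0.402 (SD, n = 4 units) in basal, 1.66 ± 1.38 (n = 4) in intermediate and 3.10 ± 1.56 (n = 5) in luminal GFPpos cells. By unit, luminal GFPpos cells had 2.25 genes at 1 week, 4.31 at 3 weeks, 3.20 at 4 weeks, 0.946 at 6 weeks and 4.82 in K5CreERT2. Basal GFPpos cells had 1.04, 1.48 and 0.688 at 1, 3 and 4 weeks and 1.55 in K5CreERT2, so in each of the 4 units with both gates the luminal mean was the higher one. The luminal GFPneg cells had 2.88 ± 1.78 (n = 5), which lies within the spread of the luminal GFPpos units, although 2 of 39 were cycling. *Prc1* had a read in 8% of basal GFPpos, 35% of luminal GFPpos and 38.5% of luminal GFPneg cells, and *Anln* in 5%, 27.5% and 28.2%. *Mki67* lacked this order, with 12%, 13.3% and 5.13%. The part of single genes in the means was not tested. The basal GFPneg cells had the most of all groups, 3.90 ± 0.375 mitosis and 7.80 ± 2.16 replication genes (n = 2 units), above basal GFPpos cells in both units. They were 6 and 11 cells, of which 1 in each unit was cycling, and in the SMACreERT2 unit they came from another plate than the basal GFPpos cells. The mean number of replication genes per cell was 4.72 ± 1.31 in basal, 5.07 ± 1.22 in intermediate, 5.32 ± 1.79 in luminal GFPpos and 4.02 ± 1.5 in luminal GFPneg cells, and the units of these groups overlapped.

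Reads were then summed over the cells of a gate in each unit, and each gene was tested with edgeR's quasi-likelihood test and Benjamini-Hochberg adjustment over all genes. Levels are given in CPM, a gene's reads scaled to all reads on genes of the summed cells. In a sum, more expressing cells and more reads per expressing cell cannot be told apart. Between luminal and basal GFPpos cells in 4 units, 45 of the 50 members passed the filter on low counts and 0 passed an adjusted p of 0.05. Of all 13571 genes 1.13% passed, 67 higher and 87 lower in luminal cells. At an unadjusted p under 0.05 the test gave 14 of the 45 members, against 13.1% of all genes. DESeq2 called 12 members, against 12.5% of its 15198 genes with an adjusted p. Without the filter edgeR called 6 members against 3.57% of genes, and on thinned cells 1 against 3.94%. The members DESeq2 called were *Ccna2*, *Ccnb2*, *Cdc20*, *Cenpa*, *Cenpe*, *Cenpf*, *Kif11*, *Kif20a*, *Nusap1*, *Prc1* and *Ube2c*, higher in luminal cells, and *Rrm2*, lower.

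The lowest p among the members belonged to genes of mitotic exit and entry. *Ccnb2* (9:70407689-70421554) was at 2.82, 8.96, 3.65 and 0.480 CPM in basal cells of SMACreERT2 at 1, 3 and 4 weeks and of K5CreERT2, and at 19.3, 92.5, 45.3 and 24.4 CPM in luminal cells. All 4 luminal units lay above all basal ones, with a log2 fold change of 3.67 ± 0.73 (SE, n = 4 units) and an edgeR adjusted p = 0.0768. *Cdc20* (4:118432901-118437343) was at 0 CPM in 3 basal units and at 0.9 CPM in the K5CreERT2 unit, against 18.6, 52.7, 19.2 and 36 CPM in luminal units. The units did not overlap (log2 fold change 8.62 ± 1.65, SE, n = 4, edgeR adjusted p = 0.0673), but the basal level rests on 15 reads, 93.3% of them in 1 cell, and with 3 units at 0 the fitted fold change depends on the prior count. *Ube2c* (2:164769929-164772902) was at 0.773, 1.73, 0 and 1.44 CPM in basal and at 3.18, 24.9, 7.62 and 55.1 CPM in luminal cells (log2 fold change 4.30 ± 1.27, SE, n = 4, edgeR adjusted p = 0.193). A few cells carried these levels: in the luminal cells of SMACreERT2 at 1 and 3 weeks, all *Ccnb2* reads came from 1 cell each, and at 4 weeks 73% of them did.

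*Racgap1* was at 0 CPM in 3 basal units and at 8.77 CPM at 3 weeks, where all 91 reads came from 1 cell. In luminal cells it was at 0, 48.8, 53.4 and 27.4 CPM, so the gates overlapped (edgeR adjusted p = 0.283). *Cenpa*, the centromeric histone, was between 0.609 and 7.42 CPM in basal and between 15.7 and 36.3 CPM in luminal units, without overlap (log2 fold change 2.53 ± 0.90, SE, n = 4, edgeR adjusted p = 0.284). The helicase gene *Mcm5* was at 0.387, 33, 40.6 and 14.8 CPM in basal and at 5.46, 36.5, 138.9 and 64.4 CPM in luminal cells, higher in luminal cells of each unit but overlapping between units (log2 fold change 1.78 ± 0.68, SE, n = 4, edgeR adjusted p = 0.321). *Pcna* showed no such order, with 35, 68.5, 60.4 and 26.1 CPM in basal and 32.3, 41.8, 51.1 and 44.3 CPM in luminal cells.

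Fitted without the filter, all 50 members had a value. Of the 26 mitosis genes 25 were higher in luminal cells with a median log2 fold change of 3.21, of the 24 replication genes 15 were higher with a median of 0.75, and of all 29494 genes 13463 were higher with a median of -0.16. In the filtered fit the replication genes rested on 1 unit: 15 of 22 were higher with a median of 0.77, and without SMACreERT2 at 4 weeks 10 of 21 were, with a median of -0.02. The mitosis genes had 23 of 23 higher with it and 21 of 23 without it, with medians of 3.08 and 2.20. These genes are detected together in the same cells, so their directions do not count separately. Over all units, 10 of 120 luminal and 1 of 100 basal GFPpos cells had 8 or more mitosis genes. Of 19 other replication and 15 other mitosis genes past the filter, edgeR called 0, and at an unadjusted p under 0.05 it gave 0 and 1.

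Between intermediate and basal GFPpos cells (4 units), 41 members passed the filter and 0 were called, as were 0 of 13780 genes. No member reached an unadjusted p of 0.05, which 1.29% of genes did. DESeq2 called 0 members and 0.592% of its genes, and edgeR without the filter 0 members and 0.0893% of genes. The lowest p belonged to *Mcm6*, at 29.7, 62.3, 82.3 and 10.7 CPM in basal and at 47.7, 41, 151.7 and 33.7 CPM in intermediate cells (edgeR adjusted p = 1.00), followed by *Rrm2*, *Prc1*, *Cdc45*, *Pola1* and *Ccne1* at the same adjusted p. *Rrm2* was lower in intermediate cells of all 4 units, and *Mcm6*, *Prc1* and *Ccne1* were higher in 3 of 4. Other replication and mitosis genes gave 0 calls of 18 and 10, and 0 at an unadjusted p under 0.05.

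Between luminal and intermediate GFPpos cells (4 units), 48 members passed the filter and 0 were called, as were 0 of 13386 genes. *Ccnb2* alone reached an unadjusted p of 0.05, against 5.31% of genes, and it was the 1 member that DESeq2 called, beside 4.31% of its genes. Without the filter edgeR called 0 members and 0.738% of genes. In intermediate cells it was at 0, 14.3, 0.271 and 10.2 CPM, below the luminal level of the same unit in 4 of 4 units (log2 fold change 4.03 ± 1.58, SE, n = 4, edgeR adjusted p = 0.885). *Ube2c*, *Cdc20*, *Mcm2* and *Gins2* were likewise higher in luminal cells of 4 of 4 units, and *Cenpe* in 3 of 4, with edgeR adjusted p between 0.967 and 0.988. *Mcm2* was at 0, 13.3, 85.4 and 20.7 CPM in intermediate and at 43, 68.6, 142.3 and 47.7 CPM in luminal cells, and the gates overlapped. The 4-week intermediate cells held replication reads with few mitosis reads: *Mcm3* was at 163.1 CPM and *Mcm6* at 151.7 CPM there, while *Mki67*, *Top2a*, *Aurkb*, *Tacc3*, *Racgap1* and *Cdc20* had 0 reads in the 19 cells. The basal GFPpos cells of that plate had the same mix, with *Mcm2* at 101.6 CPM and *Mcm3* at 50.8 CPM, 1 read of *Mki67* and 0 reads of *Top2a*, *Aurkb*, *Tacc3* and *Racgap1*. Other replication and mitosis genes gave 0 calls of 20 and 19, and 0 at an unadjusted p under 0.05.

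**Figure D4:**
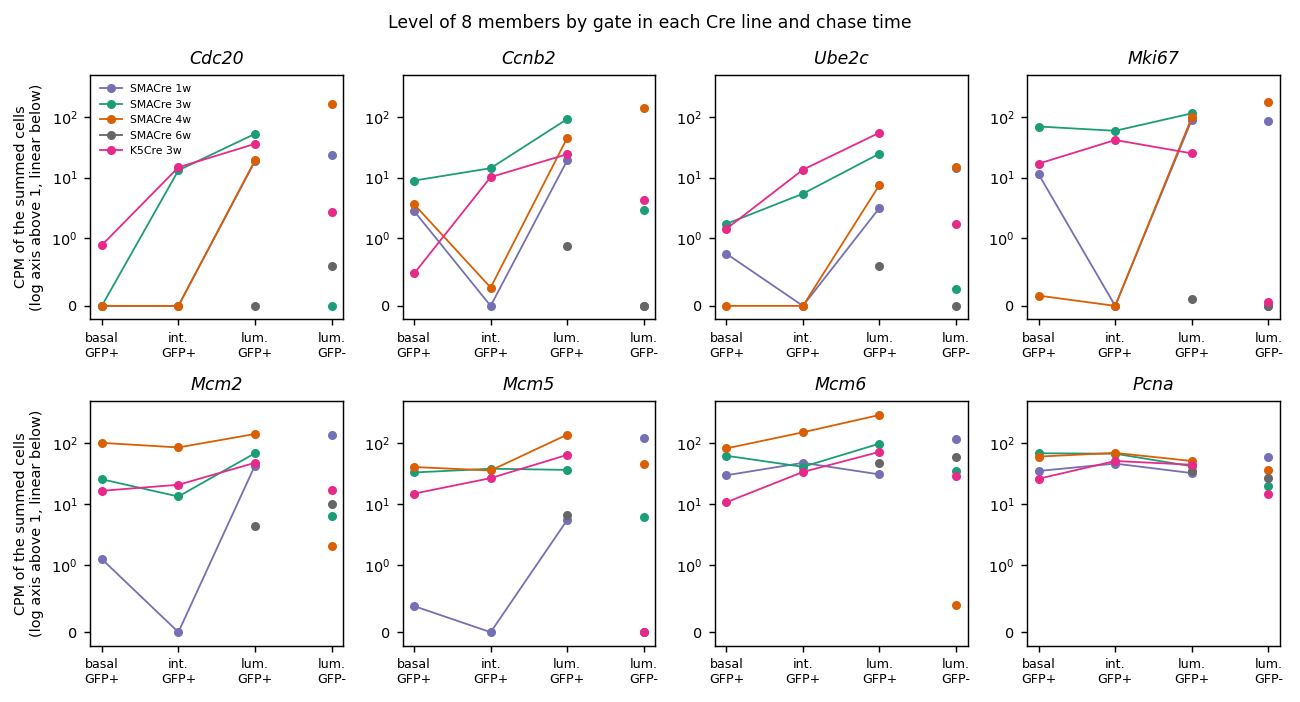
Level of 8 members in CPM of the summed cells (y axis, logarithmic above 1 and linear below) by gate, with one coloured line per Cre line and chase for the GFPpos gates and separate points for luminal GFPneg cells. Ccnb2, Cdc20 and Ube2c are higher in the luminal than in the basal GFPpos cells of each unit, while Pcna shows no such order.

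Between luminal GFPpos and GFPneg cells (5 units), 37 members passed the filter and 0 were called, as were 0 of 11599 genes. At an unadjusted p under 0.05 the test gave 4 members, *Mcm3*, *Mcm7*, *Cdc45* and *Top2a*, and 4.45% of all genes. DESeq2 called *Mcm3*, *Cdc45*, *Top2a* and *Nusap1*, and 2.59% of its genes. Without the filter edgeR called *Mcm3* alone, and 0.387% of genes. *Mcm3* had 0 reads in the GFPneg cells of 4 units and 50.3 CPM at 1 week, all of it from 1 cell, against 0, 23.1, 67.6, 25.7 and 72.8 CPM in GFPpos cells at 1, 3, 4 and 6 weeks and in K5CreERT2. The groups overlapped (log2 fold change 8.45 ± 3.17, SE, n = 5, edgeR adjusted p = 0.999), and GFPpos was higher in 4 of 5 units. *Mcm7* was at 12.7, 35, 96.9, 18.1 and 52 CPM in GFPpos and at 16.5, 10.6, 10.4, 1.76 and 3.95 CPM in GFPneg cells, also higher in 4 of 5. *Pola1*, *Ccnb2*, *Cdc45* and *Top2a* had that order in 4 of 5 units too. The GFPneg groups held 6 to 12 cells, so single cells set their level: at 4 weeks 1 GFPneg cell gave all 445 *Mki67* reads (178.1 CPM). The groups also differed in lineage genes. Among cells that were not cycling, *Esr1*, *Pgr* and *Kit* had a read in 15, 16 and 21 of 37 GFPneg cells. In GFPpos cells they had one in 14, 25 and 79 of 92. The part of this in the differences was not tested. Of 16 other replication and 10 other mitosis genes, 0 were called and 0 reached an unadjusted p of 0.05.

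In luminal GFPpos cells at 6 weeks, 16 of the 26 mitosis genes were below all 4 other luminal GFPpos units and 10 had 0 reads, with a median of 0.34 CPM. At 1 week, with fewer reads in all, 5 were below all other units, 8 had 0 reads and the median was 2.50 CPM. In the remaining units the median was 11.5 to 26.3 CPM. *Mki67* was at 0.0982 CPM from 1 read in 37 cells, against 89.6, 114.7 and 98.1 CPM at 1, 3 and 4 weeks and 25.2 CPM in K5CreERT2. *Cdc20* had 0 reads against 18.6 to 52.7 CPM, and *Top2a* was at 3.44 CPM, next to 5.23 CPM at 1 week. Not all mitosis genes were lowest there: *Aurkb* had 0 reads at 6 weeks but also at 1 and 3 weeks, and *Racgap1* at 12 CPM and *Cdk1* at 1.67 CPM lay above their 1-week level of 0. Of the 24 replication genes 3 were below all other units at 6 weeks, against 12 at 1 week, and 6 had 0 reads, among them *Uhrf1*, *Rrm2*, *Brca1* and *Ccne1*. The medians were 5.45 CPM at 6 weeks, 3.30 CPM at 1 week and 15.4 to 48.1 CPM in the other units. *Mcm2* was at 4.32 CPM against 43 to 142.3 CPM, while *Pcna* (35 CPM), *Mcm6* (48.1 CPM) and *Pola1* (32.5 CPM) lay within the range of the other units.

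In each GFPpos gate, pooled over units, cycling cells had a keratin mix near that of the other cells. *Krt5*, *Krt14* and *Krt17* are basal keratins, and *Krt8*, *Krt18* and *Krt19* luminal ones. A cell was counted as basal or luminal for keratins when *Krt5* or *Krt14*, or *Krt8* or *Krt18*, had at least 10 reads after thinning. Of the 28 cycling luminal GFPpos cells, 24 had luminal keratins only and 4 had both, and of the other 92 cells 78 and 13 did. All 28 had *Krt8* reads, from 20 to 866, with a median log2(reads + 1) of 7.75 against 7.03 in the others, and 26 had *Kit*, a receptor of luminal progenitors, against 79 of 92. *Aldh1a3* and *Elf5*, known from hormone receptor-negative luminal cells, were in 21 of 28 cells each, against 67 and 63 of 92. The receptor genes *Esr1* and *Pgr* were in 5 and 11 of 28, against 14 and 25 of 92. *Trp63*, the basal master regulator, had 0 reads in the 28 cells, which allows up to 10.7% of such cells, and *Acta2* reads were in 3.

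Of the 29 cycling intermediate GFPpos cells, 19 had both kinds of keratin, 9 basal ones only and 1 luminal ones only, and of the other cells of the gate 69.1%, 24.2% and 5.15% did. Having both did not set this gate apart from the basal gate. There, 69 of 94 GFPpos and 11 of 15 GFPneg cells that were not cycling had both too. The median log2(reads + 1) was 7.71 in cycling and 8.39 in other cells for *Krt14*, and 4.00 and 4.28 for *Krt8*. *Trp63* was in 89.7% of cycling and 71.6% of other cells, beside the higher gene number of the cycling cells given above. *Kit* was in 17.2% and 7.22%. The mix in the Cre lines was not tested. In K5CreERT2 8 of 14 cycling cells had basal keratins only and 6 had both, whereas in SMACreERT2 at 3 weeks 10 of 11 had both. Among cells that were not cycling, 36 of 110 and 10 of 65 had basal keratins only. On the second K5CreERT2 plate *Krt5* had a read in 27 of 61 intermediate GFPpos cells, against 57 of 63 on the first, while *Krt14* had one in 59 of 61 and 61 of 63.

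The single cycling intermediate cell with luminal keratins only (564 *Krt8* reads, none of *Krt5*, *Krt14* or *Trp63*) also held 40 *Ptprc* reads and *Cd74* reads, which are immune markers, and the part of this in the count was not tested. It was the only cycling GFPpos cell of that gate with 10 or more reads over 5 immune markers. The 5 endothelial and 5 fibroblast markers reached at most 13 and 6 reads in the cycling cells of the gate. In the 28 cycling luminal GFPpos cells, the immune, endothelial and fibroblast markers all had 0 reads, and 3 cells had 10 or more reads of 8 salivary gland markers, 240 at most. Of the other 92 luminal GFPpos cells 9 did, with up to 33571 reads, so cells with salivary gland transcripts remained in the denominator of that gate, and their part in the shares was not tested.

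Of the 6 cycling basal GFPpos cells, 4 had both kinds of keratin and 2 basal ones only, and of the other 94 cells 69 and 18 did. All 6 had *Krt14*, with a median of 348 reads, and 5 had *Acta2*. In 1 of them the immune markers had 23 reads, and in 1 the fibroblast markers had 50. *Kit*, *Aldh1a3* and *Elf5* had 0 reads in these 6 cells. The 2 cycling luminal GFPneg cells had luminal keratins only, and both carried *Kit*, *Aldh1a3* and *Elf5* reads. The 4-week one also held 65 reads of the endothelial gene *Pecam1*, and its part in the values of that unit was not tested. The 2 cycling intermediate GFPneg cells, both of K5CreERT2, had basal keratins only. Of the 2 cycling basal GFPneg cells, 1 had both kinds of keratin, and the other had 382 *Acta2*, 13 *Krt8* and 5 *Krt14* reads.

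**Figure D5:**
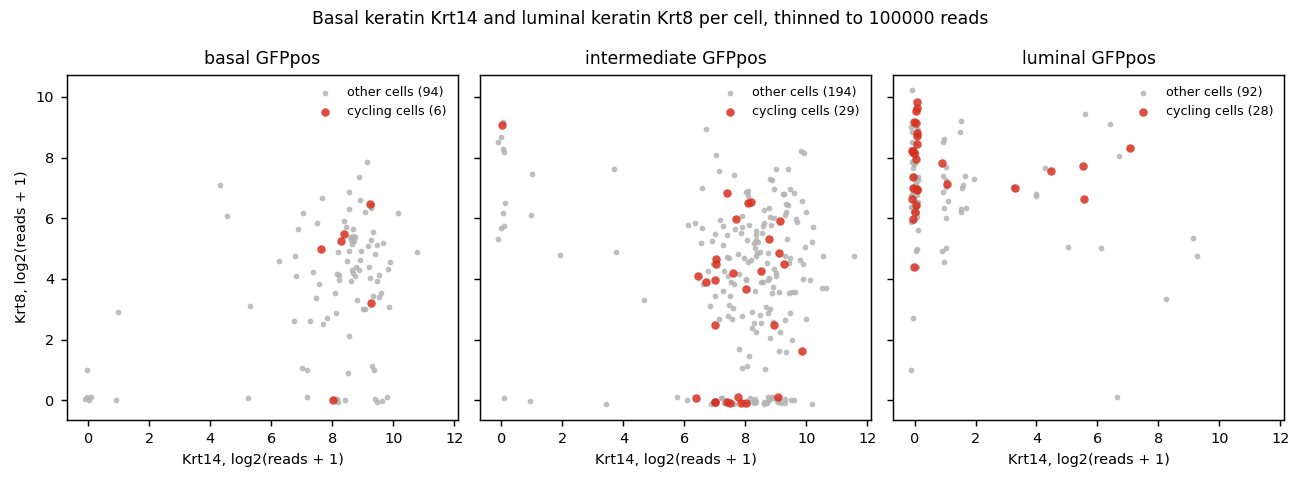
Reads of the basal keratin Krt14 (x axis) and the luminal keratin Krt8 (y axis) per cell, both as log2 of reads plus 1 after thinning to 100000 reads, in the 3 GFPpos gates; red points are cycling and grey points other cells, with a small random shift. Cycling cells lie among the other cells of their gate, at high Krt14 in the intermediate gate and mostly at 0 Krt14 in the luminal gate.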

How the data were processed

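The authors sorted single cells, sequenced them with Smart-seq2 (batches 1 and 2 single-end, batch 3 paired-end), and deposited read counts per gene without normalization. Per the labels, Trim Galore 0.6.5, STAR 2.7.7a and HTSeq 0.13.5 were used with GRCm38. Spike-ins (2.88% of reads on genes and spike-ins) and HTSeq summary rows (58.6% of all entries) were set apart. The gate and GFP came from the labels, and chase and plate from the deposited annotation. The second K5CreERT2 plate is 3 weeks in its description and 6 weeks in its sample names, and it was taken as 3 weeks. A repeat run of the 6-week plate was left out. The appendix lists intermediate and luminal GFPpos counts the other way round on some plates, and the labels were used.

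The 511 kept cells (100 basal, 223 intermediate and 120 luminal GFPpos, 17, 12 and 39 GFPneg) had mitochondrial reads under 10%, more than 1400 detected genes and a total above 100000 reads; a minimum of 2 reads of *Epcam* and a maximum of 1 of *Dcpp1* were also required. The sort gated out doublets and no doublet caller was run. Cells were thinned at random to 100000 reads. A total of 100000 reads limits what a missing read can show. Shares have exact Clopper-Pearson 95% intervals, a count of 0 was bounded by 3 counts, and both cover counting error only. CPM were scaled to the total reads on genes of the summed cells.

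Sums per group and unit (at least 3 cells in each group) were tested with edgeR 4.0.16 in R 4.3.3: quasi-likelihood test, filterByExpr, TMM, unit as a block, Benjamini-Hochberg over all genes, adjusted p under 0.05. The block pairs groups of the same unit. In the SMACreERT2 3-week unit these were only partly from the same plates. There, 60 of 76 intermediate GFPpos cells came from a plate without basal or luminal GFPpos cells. Units are few mice, so p-values measure the spread between units. DESeq2 1.42.0 was an alternative, with no filter, no replicate block, plates as units, each unit left out, thinned cells and no *Epcam* and *Dcpp1* filter. The test was checked on simulated counts. The members and lists were chosen with earlier results of these data known. Named genes were 9 fixed members, the 6 lowest p in each comparison, the 5 most and 5 least detected of each list, 6 keratins and 7 lineage genes; any other member named, such as those DESeq2 called, was chosen after its values were seen. Settings added after seeing the data were the second K5CreERT2 plate as 6 weeks or left out, the third 3-week SMACreERT2 plate left out, and cells with at least 4000 genes.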

Additional observations from a re-analysis of the deposited data

Results flagged for a closer look

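For 48 values over 4 or 5 units (the share of cycling cells, the mean number of genes per cell and the CPM of the 9 fixed members in each gate), 12 had a unit far from the others. The usual rate of about 1 in 20 holds for independent, normally distributed values and does not apply here. Many values are 0 CPM, and several rest on the same cell. In basal GFPpos cells SMACreERT2 at 3 weeks stood high for *Top2a* (68.1 CPM against 0 to 8.24), *Aurkb* (9.63 against 0) and *Racgap1* (8.77 against 0), with 87% to 100% of the reads in 1 cell. In intermediate GFPpos cells the 1-week unit of 4 cells had 3.25 replication genes per cell against 5.59 to 5.79, and *Mcm3* was at 163.1 CPM at 4 weeks against 3.21 to 25. *Aurkb* in luminal GFPpos cells was at 11.8 CPM at 4 weeks against 0 to 2.80. In luminal GFPneg cells 1 cycling cell at 1 week raised *Top2a* (46 CPM against 0 to 2.00), *Aurkb* (20.2 against 0), *Mcm2* (135.8 against 2.00 to 17.2) and *Mcm3* (50.3 against 0), and at 4 weeks *Tacc3* was at 99.7 CPM (0.128 to 17.3) and *Racgap1* at 67.2 CPM (0 to 1.70).

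Among cells that the report does not use, 13 of the 55 luminal GFPpos cells of SMACreERT2 at 3 weeks removed by the *Epcam* and *Dcpp1* filter were cycling. All 13 were removed for *Dcpp1*, a salivary gland gene, with 2 to 17722 reads, over 100 in 5 of them, and all 13 had at least 10 *Krt8* reads. At 6 weeks 0 of the 44 cells removed from that gate were cycling.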

How the results depend on the processing

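No member was called by edgeR in any comparison when a unit was left out, with plates as units, with no replicate block, without the *Epcam* and *Dcpp1* filter or with the second K5CreERT2 plate as 6 weeks, and no direction of the 6 lowest-p members reversed. With no replicate block 0 members were called in each comparison. Between luminal and basal GFPpos cells DESeq2 called 12 members, edgeR without a filter on low counts 6 (*Ube2c*, *Cdc20*, *Racgap1*, *Mki67*, *Ccnb2* and *Prc1*) and on thinned cells 1 (*Cdc20*). Between luminal and intermediate cells DESeq2 called 1, and between luminal GFPpos and GFPneg cells DESeq2 called 4 and edgeR without the filter 1 (*Mcm3*). The median fold change of the replication genes between luminal and basal cells turned from 0.77 to -0.02 without SMACreERT2 at 4 weeks. The cause was not tested. All genes called between luminal and basal cells went from 67 higher and 87 lower to 1907 in all (DESeq2), 1054 (no filter), 373 (thinned), 240 (no replicate block), 91 (second K5CreERT2 plate as 6 weeks), 68 (plates as units) and 34 to 90 (a unit left out). Between intermediate and basal cells they went from 0 to 90 (DESeq2) and 31 (no filter), between luminal and intermediate cells from 0 to 680 (DESeq2), 0.738% of genes (no filter), 9 (no replicate block), 14 (second plate as 6 weeks), 3 (no *Epcam* and *Dcpp1* filter) and 0 to 3 (a unit left out), and between luminal GFPpos and GFPneg cells from 0 to 351, 110 and 0 to 1.

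With thresholds of 8 or 6 genes, 13% of basal and 22.4% of intermediate GFPpos cells were cycling, and without thinning 22.4% of intermediate ones. Leaving out a unit gave 3.57% to 12% in basal, 12.2% to 15.2% in intermediate and 11.6% to 33.7% in luminal GFPpos cells, and 9.09% to 16.7% in basal and 3.03% to 7.41% in luminal GFPneg cells. The lowest luminal GFPneg share came without SMACreERT2 at 1 or at 4 weeks. Mitosis genes per cell went from 1.19 to 1.60 without thinning in basal GFPpos, from 3.90 to 3.23 at 50000 reads and 5.02 without thinning in basal GFPneg, and from 1.67 to 1.42 and 2.75 in intermediate GFPneg cells, where replication genes went from 6.17 to 8.25 without thinning. Of 462 alternative values, 17 shares, means or member counts moved as given here and 14 fold changes of named members passed the threshold under DESeq2, without the filter or on thinned cells, and the rest kept their direction and call. Leaving out a unit was not possible for intermediate GFPneg cells, which come from 1 unit. Depth therefore limits the counts of detected genes, and 100000 reads miss low members.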

Other observations

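The 6-week plate had been sequenced in a second run, which gives the error of detection in the same wells. Of 96 wells, 43 were compared at 100000 reads. Over the 50 members, 70.5% of the detections were in both runs and 65 were in 1 run only. A well differed by at most 4 replication genes and 2 mitosis genes between the runs. The highest counts in a well were 7 replication and 4 mitosis genes in the first run, and 8 and 4 in the second. The median correlation of log counts over all genes was 0.980.

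Over all cells, the number of replication genes went with the number of genes of any kind (Pearson r = 0.533), as did the number of mitosis genes (r = 0.444). The points share depth after thinning and come from the same plates, so these are descriptions.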
